A study of Mus musculus with 2 samples.

Results

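The interferon regulatory factor family was followed in common myeloid progenitors, bone marrow cells that can still form every myeloid lineage, from granulocytes and monocytes to megakaryocytes and erythrocytes. Its 8 members, Irf1, Irf2, Irf3, Irf4, Irf5, Irf7, Irf8 and Irf9, were chosen by gene symbol through their Ensembl identifiers, out of 43346 Ensembl genes in the deposited tables. Primary cells were taken from adult male mice of the C57BL/6J strain at 5 to 6 weeks of age, with no treatment or altered allele named in the labels. Total RNA depleted of ribosomal RNA, from an input of 100 ng, was made into ScriptSeq libraries, and there were 2 libraries of this 1 group, replicate 1 and replicate 2. One donor label is shared by both, and their spread may therefore be technical in part. There was no second condition, so levels and differences between the libraries are described and none was tested.

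Interferon regulatory factors share a DNA-binding domain that recognises GAAA repeats in the interferon-stimulated response elements of target genes. Irf3, Irf5 and Irf7 are activated by kinases downstream of sensors of microbial nucleic acids and drive interferon genes. Irf9 joins Stat2 in the complex that answers type I interferon, and Irf1 and Irf2 act as activator and antagonist on shared sites. Irf8 and Irf4 bind composite sites with partners such as PU.1 and direct blood cell fates, Irf8 in monocytes and dendritic cells and Irf4 in plasma cells, activated lymphocytes and some dendritic cells.

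Replicate 1 held 28158803 expected counts (estimated reads, which need not be whole) over Ensembl genes and replicate 2 held 84041054, 2.98 times as many. Where a gene had 0 counts, the upper limit was set at 3 counts, for counting error only. This limit was 0.107 CPM (counts scaled to the library's depth) in replicate 1, against 0.0357 CPM in replicate 2. Among markers of the progenitor gate, Cd34 stood at 125.44 and 121.43 TPM and Kit at 33.45 and 39.77 TPM in replicates 1 and 2. Ly6a, the Sca-1 gene, stood at 0.69 and 0.73 TPM. The Fc gamma receptor genes of the gate were present too, Fcgr2b at 6.28 and 6.11 TPM and Fcgr3 at 1.63 and 3.48 TPM. For Fcgr3 the log2 CPM ratio of replicate 2 over replicate 1 was 0.83. Il7r, a lymphoid progenitor receptor gene, had 218 counts in replicate 1 and 76 in the deeper replicate 2. RNA of many cells was pooled, so fewer cells of a type and less RNA per cell cannot be told apart.

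As a family, 6 of the 8 members reached 1 TPM (a level per transcript length, relative to all entries of the table) in both libraries, the exceptions being Irf4 and Irf7. Among 21461 nuclear protein-coding genes, 9116 did so, or 42.5%. The median level of the 8 members was 6.84 TPM in replicate 1 and 8.05 TPM in replicate 2, a mean of 7.45 ± 0.856 TPM (SD, n = 2). Over all nuclear protein-coding genes the median was 0.29 and 0.35 TPM, and over those at 1 TPM in both libraries it was 6.71 and 7.77 TPM. The median of all 8 members was thus near that of the genes at 1 TPM in both libraries. That filter leaves out Irf4 and Irf7, so these medians do not compare like sets. Of the 6 members that passed it, Irf8, Irf3, Irf1 and Irf9 stood above the median of those genes in each library. Irf2 and Irf5 stood below it in each library. The members' TPM summed to 70.5 in replicate 1 and 81.6 in replicate 2, from 9763 and 29752 counts. In depth-scaled counts the sums were closer, at 347 CPM in replicate 1 and 354 CPM in replicate 2.

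**Figure D1:**
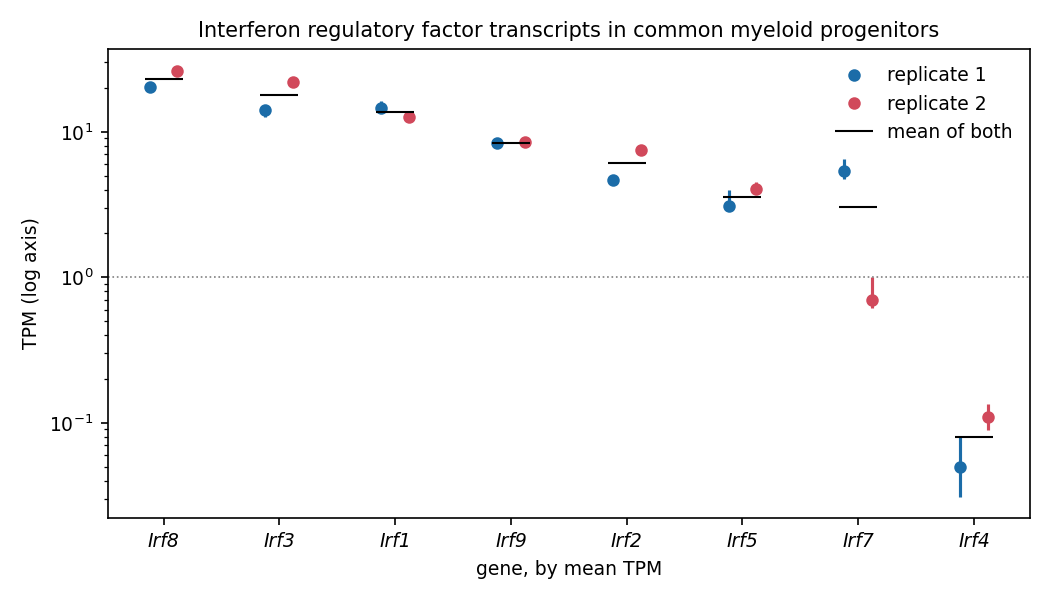
TPM of each member on a log axis, with 1 point per library, the deposited interval of that library as a vertical line and the mean of both as a horizontal bar; the dotted line marks 1 TPM. Irf8 is the highest in both libraries at 20.43 and 26.02 TPM, Irf4 the lowest at 0.05 and 0.11 TPM, and the points of Irf7 lie farthest apart at 5.37 and 0.7 TPM.

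Irf8, the monocyte and dendritic cell factor, was the most abundant member in each library. It held 29.0% of the family's TPM in replicate 1 and 31.9% in replicate 2, averaging 30.4% ± 2.06 (SD, n = 2). Its level was 20.43 TPM from 4083 counts in replicate 1 and 26.02 TPM from 13187 counts in replicate 2, with a mean of 23.2 ± 3.95 TPM (SD, n = 2). That mean ranked 1472 among the nuclear protein-coding genes. In depth-scaled counts the libraries were closer, at 145 CPM in replicate 1 and 157 CPM in replicate 2. Irf8 (ENSMUSG00000041515.5) lies at chr8:120736358-120756694 on the plus strand of GRCm38, the mm10 assembly. It lies within the longer readthrough locus Gm20388 on the same strand. Its counts were whole within 0.005 in both libraries, as were those of the other members. Genes outside the family, such as Spi1 and Stat2, had whole counts too, and the share over all genes was not taken. Whole counts do not show that reads of an overlapping locus were kept apart.

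Almost all Irf8 transcripts belonged to 1 model. Irf8-201, a protein-coding model of 2847 nt, held 99.0% of the gene's TPM in replicate 1 and 96.1% in replicate 2. Models that begin within 50 bases of the upstream RefSeq start held 99.4% and 97.6%, and those at a second RefSeq start held 0% and 0.0384%. The 250 bases before the upstream start are shown because nearly all Irf8 transcripts begin beside them. Capitals mark matches to GAS, TTCNNNGAA, a palindromic element of genes that respond to interferon gamma.

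Irf8 promoter, chr8:120736108-120736357, plus strand, RefSeq GRCm38.p6: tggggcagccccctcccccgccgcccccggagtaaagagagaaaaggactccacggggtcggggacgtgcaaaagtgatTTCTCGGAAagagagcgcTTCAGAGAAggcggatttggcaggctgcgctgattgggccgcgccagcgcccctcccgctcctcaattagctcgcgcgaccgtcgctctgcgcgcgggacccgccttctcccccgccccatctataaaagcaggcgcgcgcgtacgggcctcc

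The first match, TTCTCGGAA, begins 171 bases before the start and the second, TTCAGAGAA, begins 153 bases before it. GAS letters were present on either strand in 7.02% of the RefSeq windows of that length. A match is a description of letters and not a measured binding site.

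Irf4, the closest relative of Irf8 in the family, was the lowest member. It had 17 counts in replicate 1 and 97 in replicate 2, or 0.604 CPM (exact Poisson 95% interval 0.352 to 0.967) and 1.15 CPM (0.936 to 1.41). These counts lay above the limit of a count of 0 in both libraries. Its level was 0.05 and 0.11 TPM, a mean of 0.08 ± 0.0424 TPM (SD, n = 2), so Irf8 stood 409 times as high in replicate 1 and 237 times as high in replicate 2. Irf4 (ENSMUSG00000021356.5) lies at chr13:30749226-30766976 on the plus strand.

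Irf1 and Irf2, the activator and antagonist pair, differed in level and in how they moved between libraries. Irf1 stood at 14.54 TPM in replicate 1 and 12.69 TPM in replicate 2, a mean of 13.6 ± 1.31 TPM, from 1465 and 3872 counts. Irf2 stood at 4.67 TPM in replicate 1 and 7.55 TPM in replicate 2, a mean of 6.11 ± 2.04 TPM, from 808 and 3357 counts (SD, n = 2 for both genes). Irf1 was above Irf2 in each library, by 3.11-fold in replicate 1 and 1.68-fold in replicate 2. Irf1 was slightly lower and Irf2 higher in replicate 2, with log2 CPM ratios of replicate 2 over replicate 1 of -0.17 and 0.48. Irf1 (ENSMUSG00000018899.12) lies at chr11:53770014-53778374 and Irf2 (ENSMUSG00000031627.7) at chr8:46739732-46847458, both on the plus strand.

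The Irf1 total joined models of different kinds. The protein-coding model Irf1-201 held a like share of its TPM in both libraries, 32.7% in replicate 1 and 31.0% in replicate 2. Irf1-202, also protein-coding, held 20.3% and 40.8% and led in replicate 2. Irf1-205, which led in replicate 1, is a noncoding processed transcript of 943 nt and held 40.5% there, against 0.394% in replicate 2. Irf1-209, a model marked for nonsense-mediated decay, held 2.68% and 18.3%. The protein-coding models together stood at 7.71 TPM in replicate 1 and 9.92 TPM in replicate 2. As the reads were assigned to models, protein-coding Irf1 was higher in replicate 2 although the gene total was lower there. In CPM the coding models were closer, at 39.2 in replicate 1 and 43.7 in replicate 2. Whether the read assignment moved with this difference was not tested. Irf2 had a single protein-coding model, Irf2-201, in the tables.

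Of 11 promoter windows of the 8 members, 3 held a match to GAS, to the response element core GAAANNGAAA or to the composite ETS-IRF element GGAANNGAAA, and these were 1 each of Irf8, Irf1 and Irf2. Over all 32851 windows, 11.6% held a match to any of these letters. The Irf1 and Irf2 windows are printed to set beside that of Irf8, with matches in capitals.

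Irf1 promoter, chr11:53769764-53770013, plus strand, RefSeq GRCm38.p6: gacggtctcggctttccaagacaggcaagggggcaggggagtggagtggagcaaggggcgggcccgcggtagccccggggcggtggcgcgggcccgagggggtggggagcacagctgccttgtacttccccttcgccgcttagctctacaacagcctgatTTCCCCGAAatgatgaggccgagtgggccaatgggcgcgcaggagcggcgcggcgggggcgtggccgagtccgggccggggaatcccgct

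Irf2 promoter, chr8:46739495-46739744, plus strand, RefSeq GRCm38.p6: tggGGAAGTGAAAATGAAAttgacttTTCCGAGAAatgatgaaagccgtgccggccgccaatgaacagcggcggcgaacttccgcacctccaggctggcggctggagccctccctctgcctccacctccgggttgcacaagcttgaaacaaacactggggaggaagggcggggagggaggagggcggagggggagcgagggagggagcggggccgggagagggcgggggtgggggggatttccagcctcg

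In Irf1, TTCCCCGAA begins 90 bases before the start. In Irf2, GGAAGTGAAA begins 247 bases before the start and overlaps GAAAATGAAA at 241, with TTCCGAGAA at 224. The response element core was present in 2.98% of windows and the ETS-IRF letters in 2.30%, on either strand. Models beginning at the printed Irf1 start held 20.3% of the gene's TPM in replicate 1 and 47.1% in replicate 2.

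Irf3, Irf5 and Irf7, the members activated by sensor kinases, spanned a wide range. Irf3, made in most cell types and held inactive until phosphorylated, stood at 14.03 TPM in replicate 1 and 21.90 TPM in replicate 2, a mean of 17.97 ± 5.56 TPM (SD, n = 2). Its counts were 1190 and 3645, or 42.3 and 43.4 CPM. Irf3 thus differed 1.56-fold in TPM and 1.03-fold in CPM. The effective length by which TPM is divided was 1113 nt in replicate 1 and 855 nt in replicate 2. With 1 effective length per gene, Irf3 stood at 17.1 and 17.8 TPM. Irf3 (ENSMUSG00000003184.10) lies at chr7:44997648-45002848 on the plus strand.

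Irf3 reads were assigned to models of different length in the libraries. Irf3-201, a protein-coding model of 2031 nt, made up 25.0% of Irf3 transcripts by TPM in replicate 1 and 18.1% in replicate 2. The model ENSMUST00000127011.1, of 659 nt, held 2.42% and 36.2%. ENSMUST00000145728.1 held 23.8% and 15.3%, ENSMUST00000145233.1 2.85% and 19.5%, ENSMUST00000146355.1 18.9% and 0%, and ENSMUST00000107835.3 17.0% and 1.78% of the gene's TPM in replicates 1 and 2. All of these but Irf3-201 are among 7 Irf3 models that M21 does not list, which made up 75.0% of the gene in replicate 1 and 76.0% in replicate 2, so their class was not assigned.

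Irf5, which acts downstream of Toll-like receptors in myeloid cells, stood at 3.10 TPM in replicate 1 and 4.06 TPM in replicate 2, a mean of 3.58 ± 0.679 TPM (SD, n = 2). In CPM it was 17.0 and 16.6, and its deposited TPM intervals overlapped. Irf5-202 held 100% of its TPM in replicate 1 and 31.3% in replicate 2, where Irf5-201 held 52.7% and Irf5-205 13.3%. These models are protein-coding, and coding models together held 100% and 97.3% of the gene's TPM. Irf5 (ENSMUSG00000029771.8) lies at chr6:29526625-29541871 on the plus strand.

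Irf7, the interferon-inducible amplifier of type I interferon, was the member that differed most between the libraries. It had 234 counts in replicate 1 and 209 in replicate 2, or 8.31 and 2.49 CPM, although replicate 2 was 2.98 times as deep. Its level was 5.37 TPM in replicate 1 and 0.70 TPM in replicate 2, and averaged 3.04 ± 3.30 TPM (SD, n = 2). Replicate 1 was thus 7.67-fold higher in TPM and 3.34-fold higher in CPM. Its effective length was 571 nt in replicate 1 and 1538 nt in replicate 2. Irf7 (ENSMUSG00000025498.10) lies at chr7:141262706-141266481 on the minus strand.

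The Irf7 difference lay in short models that keep an intron. Retained-intron models stood at 4.72 TPM from 152 counts in replicate 1 and 0.19 TPM from 17.5 counts in replicate 2. Protein-coding models stood at 0.66 TPM in replicate 1 and 0.50 TPM in replicate 2, or 2.91 and 2.27 CPM. Among them Irf7-203 held 6.32% and 50% of the gene's TPM and Irf7-201 held 0% and 21.4%. On coding models alone, Irf7 was therefore below 1 TPM in both libraries, 1.32-fold higher in replicate 1. The models with reads, Irf7-205 of 687 nt and Irf7-209 of 559 nt, both keep intron 3, which lies between coding exons. It is 85 nt long with a GC content of 55.3%, and is printed as the feature these models share; capitals mark its splice dinucleotides.

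Irf7 intron 3, chr7:141265292-141265376, minus strand, GRCm38: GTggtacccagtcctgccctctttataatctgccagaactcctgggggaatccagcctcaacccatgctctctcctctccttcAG

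Of Irf7 TPM, models that keep this intron made up 87.7% in replicate 1, against 27.1% in replicate 2. The tables assign reads to models and do not count reads over the intron itself. Whether spliced and unspliced RNA, the overlapping gene Phrf1 or the read assignment moved with the difference was not tested.

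**Figure D2:**
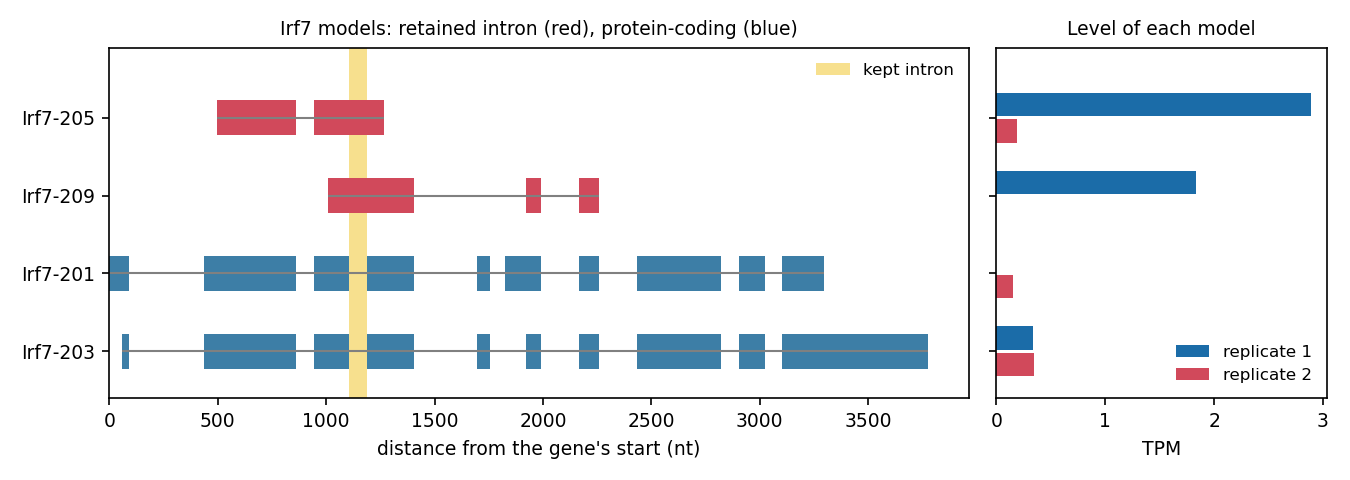
Left, exons of 4 Irf7 models by distance in nt from the gene's start, with the kept intron shaded; right, TPM of each model with 1 bar per library. Irf7-205 stands at 2.89 and 0.19 TPM and Irf7-209 at 1.83 and 0 TPM in replicates 1 and 2, while the coding model Irf7-203 stands at 0.34 and 0.35 TPM.

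Irf9, the DNA-binding subunit of the type I interferon complex, had the TPM ratio between libraries nearest to 1. It stood at 8.31 TPM in replicate 1 and 8.55 TPM in replicate 2, a mean of 8.43 ± 0.17 TPM (SD, n = 2), from 1487 and 3993 counts. In CPM it was lower in replicate 2, at 52.8 and 47.5 CPM in replicates 1 and 2, and there Irf3, Irf5 and Irf8 differed less. Its protein-coding models stood at 7.52 and 7.02 TPM, led by Irf9-202 with 61.8% of TPM in replicate 1 and 58.2% in replicate 2. The protein-coding model Irf9-205 held 28.6% and 20.4%. The retained-intron model Irf9-206 held 9.62% and 14.5%. Irf9 (ENSMUSG00000002325.10) lies at chr14:55603571-55610030 on the plus strand.

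By mean TPM the order was Irf8, Irf3, Irf1, Irf9, Irf2, Irf5, Irf7 and Irf4. Some neighbours did not separate beyond the spread of the libraries. Across libraries, the values of Irf8 and Irf3 overlapped, as did those of Irf3 and Irf1, and those of Irf7 with both Irf5 and Irf2. Within each library, Irf8 lay above Irf3, by 1.46-fold in replicate 1 and 1.19-fold in replicate 2. Irf9 lay above Irf2, and Irf4 below all others, in each library. Only 3 members held the same place in both libraries by deposited TPM. With 1 effective length per gene, an alternative chosen after seeing the data, all 8 did.

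Across the family, 1 of 8 members, Irf7, was at least 2-fold apart between the libraries in TMM-scaled CPM. On deposited TPM with no pseudocount Irf4 also passed, with a log2 ratio of 1.14 between levels of 0.11 TPM in replicate 2 and 0.05 TPM in replicate 1. The share over 12704 genes with a mean count of at least 50 was 10.4%. The median absolute log2 CPM ratio was 0.16 over the members and 0.25 over those genes. Deposited TPM intervals, which cover estimation within 1 library and whose level is not given, did not overlap for 6 of 8 members, against 64.8% of genes. The members' counts on both measures were near the background.

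**Figure D3:**
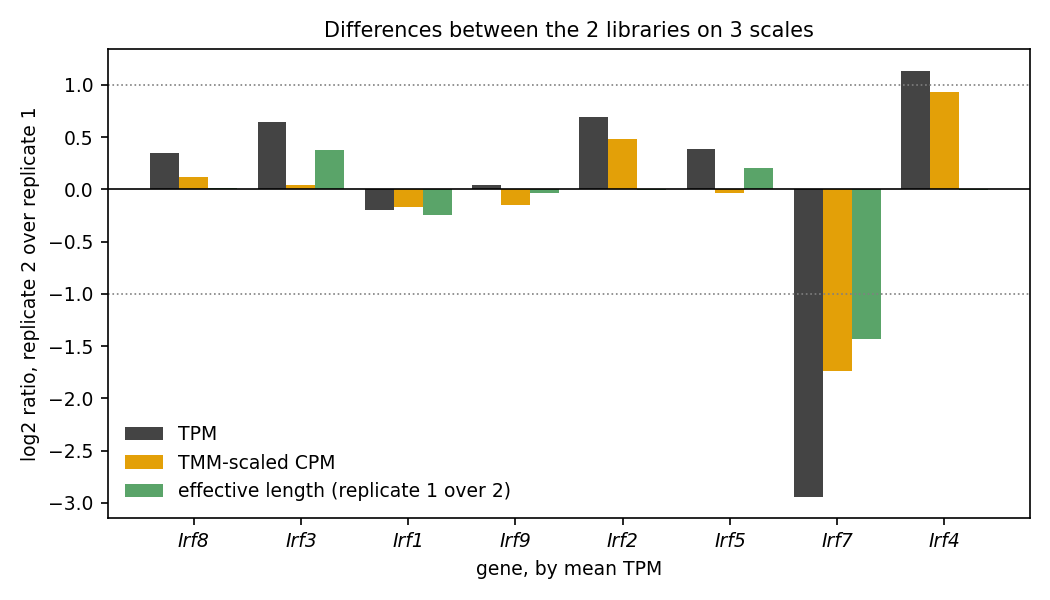
Log2 ratio of replicate 2 over replicate 1 for each member in TPM and in TMM-scaled CPM, beside that of effective length (replicate 1 over replicate 2). Dotted lines mark 2-fold. Irf7 reaches -2.94 in TPM and -1.73 in CPM with -1.43 for effective length, and Irf3 stands at 0.64 in TPM but 0.04 in CPM. The CPM and length ratios do not add up to the TPM ratio, because TPM is also scaled over all entries of each library. That scale is shared by all genes of a library, and it raises the TPM ratio of each member by a like amount. Irf2, at -0.008 for effective length, stands at 0.69 in TPM and 0.48 in CPM.

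The leading transcript model was compared between the libraries for each member. Of 6 members with at least 2 models and 100 counts in each library, the leading model differed for 4, Irf1, Irf3, Irf5 and Irf7, against 24% of 7347 genes. The share of TPM in models other than protein-coding moved by at least 20 percentage points in 2 of 5 members, Irf1 and Irf7, against 19.5% of 5738 genes. With so few members these shares are counts beside a background and no test of the family.

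**Figure D4:**
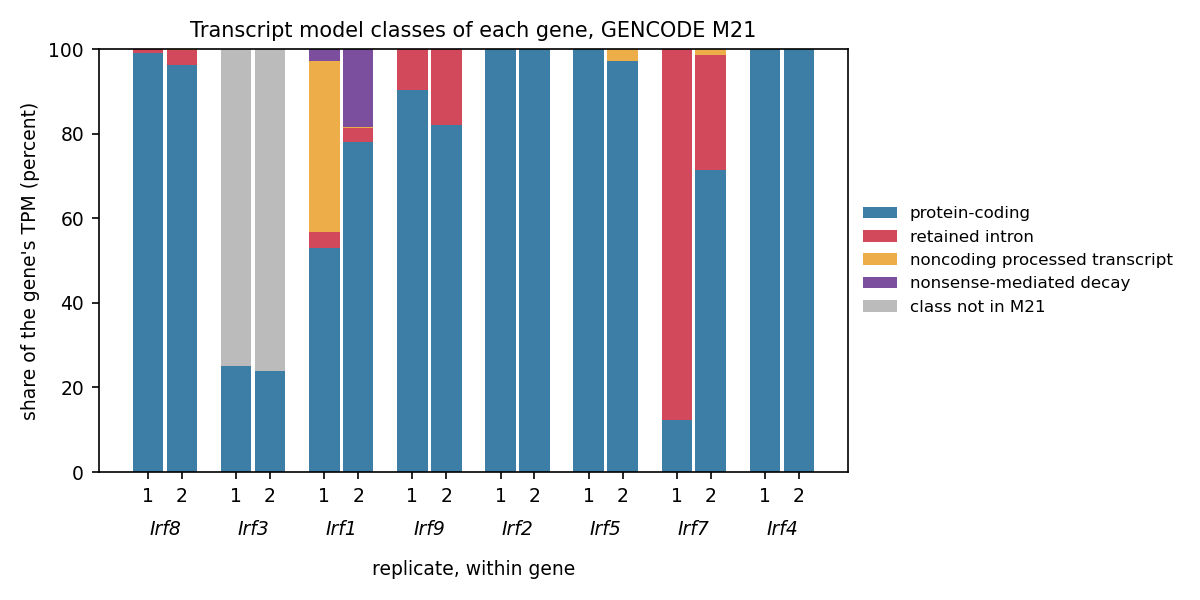
Share of each member's TPM by GENCODE M21 model class, with 1 bar per library. Irf8 is almost wholly protein-coding at 99.0% and 96.3% in replicates 1 and 2, Irf7 is 87.7% and 27.1% retained intron, and most of Irf3 is in models that M21 does not list.

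The genes that work with the family were described from lists of known roles. Of 10 DNA-binding partners, 7 reached 1 TPM in both libraries, with medians of 10.8 and 11.8 TPM in replicates 1 and 2. Spi1, which encodes the Irf8 and Irf4 partner PU.1, stood at 13.44 and 16.49 TPM, and Etv6 and Tcf3 at 22.96 and 28.58 TPM and at 14.13 and 17.80 TPM. Jun, a partner in AP-1 composite elements, was the highest at 60.95 and 84.52 TPM, its relative Junb stood at 16.92 and 22.39 TPM, and Batf stood at 8.12 and 7.09 TPM. Batf3, the Irf8 partner of cross-presenting dendritic cells, had 0 and 61 counts, and Spib, a PU.1 relative of plasmacytoid dendritic cells, had 0 in both.

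All 9 genes from interferon receptors to STAT reached 1 TPM in both libraries. The highest, Ifngr1, stood at 24.84 and 28.13 TPM and the kinase gene Jak1 at 19.40 and 24.56 TPM in replicates 1 and 2. Stat2, a partner of Irf9, was lower at 1.49 and 1.47 TPM. Of 18 sensors, adaptors and kinases upstream of Irf3, Irf5 and Irf7, 17 did so, with medians of 3.75 and 4.43 TPM. Tbk1, the kinase of Irf3 and Irf7, stood at 5.81 and 6.38 TPM and Ikbkb, a kinase of Irf5, at 12.48 and 15.32 TPM. Unc93b1, which carries Toll-like receptors to endosomes, stood at 14.85 and 17.91 TPM. Of 8 cofactors, 7 did so, led by Irf2bp2, a corepressor that binds Irf2, at 15.08 and 18.96 TPM.

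Most interferon genes themselves had no counts at this depth. Of 10 listed, 9 had 0 counts in both libraries, and Ifng had 0 and 19. Of 20 interferon-stimulated genes, 10 reached 1 TPM in both libraries, with medians of 1.39 and 1.54 TPM. The antigen-processing genes Tap1 and Psmb9, known targets of Irf1, led at 16.26 and 26.84 TPM and at 15.66 and 26.43 TPM. In CPM the libraries were closer, at 93.5 and 110 for Tap1 and 35.2 and 37.7 for Psmb9. Irgm1 stood at 13.58 and 12.46 TPM and Bst2, which tethers budding virus, at 7.76 and 11.56 TPM. Isg15 had 0 and 88 counts, Ifit3 0 and 105, and Ifit1 6 and 180 in replicates 1 and 2. Of the 18 with a mean count of at least 50, 5 were at least 2-fold apart between the libraries, 4 higher and Usp18 lower in replicate 2, beside 10.4% of all genes at that count. At the same count, 0 of 7 DNA-binding partners, 0 of 9 receptor to STAT genes, 0 of 18 upstream genes and 0 of 8 cofactors were so far apart, and 1 of 13 genes linked to Irf8.

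Of 14 monocyte and dendritic genes linked to Irf8, 11 reached 1 TPM in both libraries, with medians of 3.68 and 3.97 TPM. Cst3 stood at 61.96 and 59.28 TPM, Ly86 at 25.32 and 28.46 TPM and Flt3 at 20.97 and 24.93 TPM. The cathepsin gene Ctss stood at 15.60 and 16.73 TPM. Of 8 lymphoid genes linked to Irf4, with medians of 0.01 and 0.03 TPM, 1 did so, the secretory factor gene Xbp1 at 12.18 and 15.98 TPM, while the B cell factor genes Pax5 and Ebf1 had 0 counts in both.

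**Figure D5:**
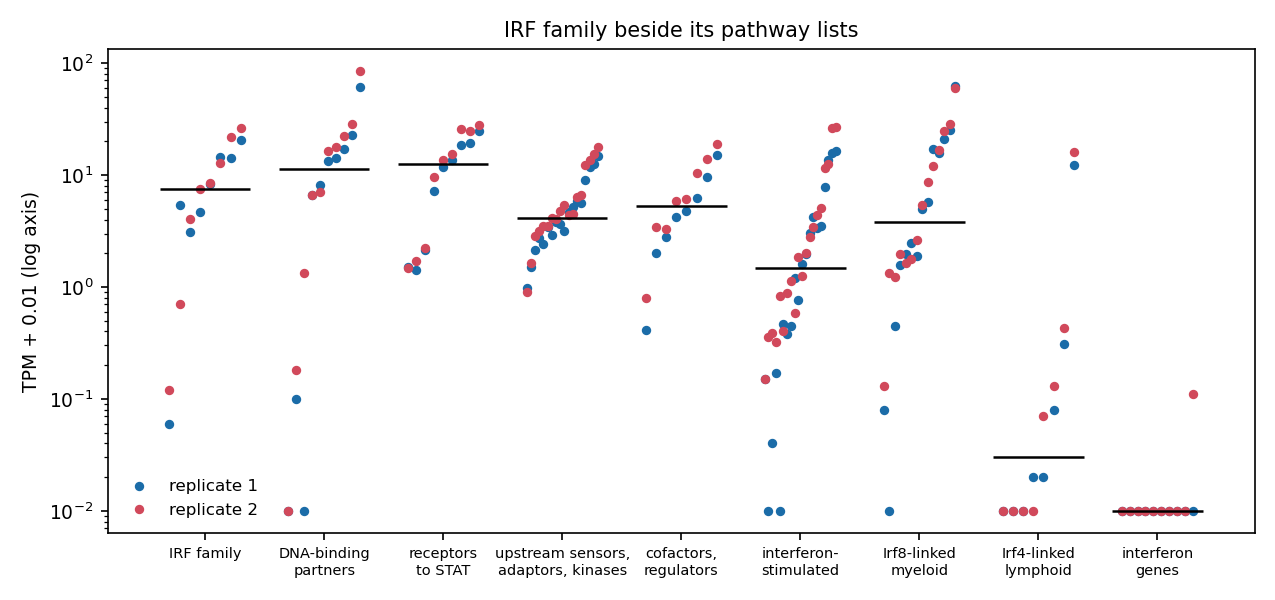
TPM plus 0.01 on a log axis for the family and 8 lists, with 1 point per gene and library and the mean of the libraries' medians as a black line. The family median, 7.45 TPM, lies between those of the DNA-binding partners at 11.3 TPM and the interferon-stimulated list at 1.46 TPM, and 9 interferon genes lie at 0.

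Markers of mature cells that express these factors were low. The 4 plasmacytoid dendritic markers summed to 0.22 TPM in replicate 1 and 0.1 TPM in replicate 2, with Klk1 and Pacsin1 at 0 in both. The 5 macrophage markers summed to 0.99 and 1.06 TPM and the 5 conventional dendritic markers to 2.56 and 2.72 TPM, of which Zbtb46 held 1.57 and 1.96 TPM and Xcr1 was at 0. The 6 B and plasma cell markers summed to 0.59 and 0.07 TPM, with 4 at 0 in both libraries. The 4 T and NK cell markers summed to 0.15 and 0.16 TPM, with Cd3e, Cd8a and Ncr1 at 0. Plasmacytoid and B cell sums were higher in replicate 1, as was Irf7, and their part in the Irf7 difference was not tested. Several members share bases with other annotated genes, such as Irf3 with Bcl2l12, Irf5 with Tnpo3 and Irf9 with Rnf31, and whether counting used strand is not given in the sources used here, so their levels carry that uncertainty.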

How the data were processed

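The authors deposited a gene and a transcript table for each of the 2 libraries, against the mm10 assembly and the GENCODE M4 annotation as their readme states; the aligner and quantifier are not given in the sources used here. Per the file headers, the tables give expected counts, TPM, FPKM, bounds of a TPM interval and, for transcripts, the percent of the gene's abundance. TPM in the deposited tables is relative to all entries, of which nuclear protein-coding genes held 20.1% in replicate 1 and 21.5% in replicate 2.

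Of 69691 entries, the 43346 Ensembl genes were used; the rest held 0 counts in replicate 1 and 83 in replicate 2. Gene symbols, model classes and positions were taken from GENCODE M21 (GRCm38), and 42462 genes matched. Promoters came from RefSeq GRCm38.p6. Expected counts were rounded and scaled by TMM in edgeR 4.0.16 (DESeq2 1.42.0 size factors as the alternative) in R 4.3.3, with a prior count of 0.5. Tables were handled with pandas 2.3.3 and numpy 2.4.6 under Python 3.11.15; exact intervals used scipy 1.17.1, and plots used matplotlib 3.10.9. In Poisson data simulated over 43346 genes with 200 changed 8-fold between the libraries, 100% were recovered at 2-fold. The changed genes were drawn from those with an expected count of at least 50. Of the unchanged genes kept by a filter on counts, 0.008% passed 2-fold, against 10.4% of genes with a mean count of at least 50 in the real libraries. The simulation held counting error only, so it checks the calculation and not the spread between libraries.

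With 1 group there was no test. The reads carry no molecular identifiers and may repeat a molecule, so intervals cover counting error only. Alternatives were posterior mean TPM, FPKM, TPM rescaled to protein-coding genes, other scalings and count filters, and each library alone. The members and lists were chosen with earlier results of these data known. The rule for named genes took all members, models with at least 10% of a member's TPM, the 4 highest of each list, up to 4 list genes at 0 in both libraries, and genes that act directly on a member; others were named after their values were seen. Not every gene or model that the rule covers is printed, and some list genes are not reported here by name.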

Additional observations from a re-analysis of the deposited data

How the results depend on the processing

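Irf8 kept the largest share of the family's TPM under every alternative run, and Irf7 was at least 2-fold apart under each, with log2 ratios from -2.94 to -1.62. It was the 1 such member except on deposited TPM with no pseudocount, an alternative chosen after seeing the data, where there were 2 because Irf4 reached 1.14; with a pseudocount of 0.1, above its level in replicate 1, Irf4 stood at 0.49. The family median was 18.6 in FPKM and 35.7 in TPM rescaled to nuclear protein-coding genes, which change the unit or its base. Genes at least 2-fold apart made up 20.8% at a mean count of at least 10 and 29.6% with no filter on counts. On either of those other units, 7 members reached 1 in both libraries. Of 123 single values under alternatives, 97 kept their side or stayed within the spread, 25 moved and 1 (Irf4) newly passed 2-fold. Among the 123 values, 0 changed sign while past 2-fold. With 2 libraries, the value of each library alone always lies within 1 SD of their mean. Such values among the 97 were therefore fixed in advance and are no check. No paired analysis was possible because the libraries form 1 group and no result comes from a test. Depth limits Irf4, with 17 counts in replicate 1, and the models of Irf7.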
